A study of Homo sapiens with 3 samples.

Results

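The zinc finger genes of chromosome 19 with names of the form ZNF and a number were examined for binding of the coactivator EP300, which acetylates histones, in naive human embryonic stem cells. Members were the rows of both EP300 peak tables on chromosome 19 whose gene name had that form, optionally followed by 1 capital letter. The rule took 376 rows of 81061 in replicate 1 and 377 of 80208 in replicate 2. Rows of the same interval were joined, which left 310 peaks of 65276 in replicate 1 and 300 of 64896 in replicate 2. These peaks named 222 genes, 215 of them protein coding and 7 pseudogenes. RefSeq lists 246 coding genes of this name form on chromosome 19, and the 31 without a peak in either table are counted below as members as well.

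The cells were H9, an established human embryonic stem cell line, wild type, grown in PXGL, a medium that holds the naive state. It adds to N2B27 the MEK inhibitor PD0325901, the tankyrase inhibitor XAV939, human LIF at 10 ng/mL and Go 6983, which inhibits protein kinase C. They grew on a layer of mouse embryonic fibroblasts and were profiled by ChIP-seq, which sequences the DNA fragments that an antibody pulls down with a protein. The series has 2 EP300 samples, called replicates 1 and 2, and 1 input sample without antibody, not analysed here. Separate cultures are not named in the labels, and differences between the replicates may therefore be technical only. There is 1 group, so no condition was compared with another.

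ZNF genes encode proteins with arrays of C2H2 zinc fingers that read DNA, and many on chromosome 19 also carry a KRAB domain, which recruits the corepressor TRIM28 and the histone methyltransferase SETDB1. They arose by repeated tandem duplication and lie in large clusters, and many of their proteins bind and silence transposable elements. EP300 is found at active promoters and enhancers.

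The promoters of most chromosome 19 ZNF genes carried an EP300 peak, but in a stretch of 9 neighbouring genes no peak was called. A promoter was counted as occupied if a region found in both replicates held a peak that the authors' annotation placed within 3 kb of that gene's start. Of the 246 coding members, 208 were occupied (84.6%, Wilson 95% interval 79.5 to 88.5), against 68.7% of all 19974 coding genes. With genes assigned by position alone, from a region within 3 kb of any RefSeq start, 216 were occupied (87.8%, 83.1 to 91.3), against 75.5% of all coding genes. Intervals cover counting error over genes only, and neighbouring duplicated genes are not independent of each other.

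The share was close to that of the ZNF genes elsewhere in the genome and above that of the other genes of the same chromosome. ZNF genes of other chromosomes were occupied in 217 of 263 cases (82.5%, 77.5 to 86.6), and the difference of 2.04 percentage points had a 95% interval of -4.47 to 8.47. By position alone the sign turned, with 87.8% on chromosome 19 and 89% elsewhere. It turned as well among peaks of fold enrichment of at least 5, at -0.017 points, and of -log10 q-value of at least 5, at -0.606 points. The other coding genes of chromosome 19 were occupied in 853 of 1205 cases (70.8%, 68.2 to 73.3), 13.8 points below the members (8.14 to 18.5).

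**Figure D1:**
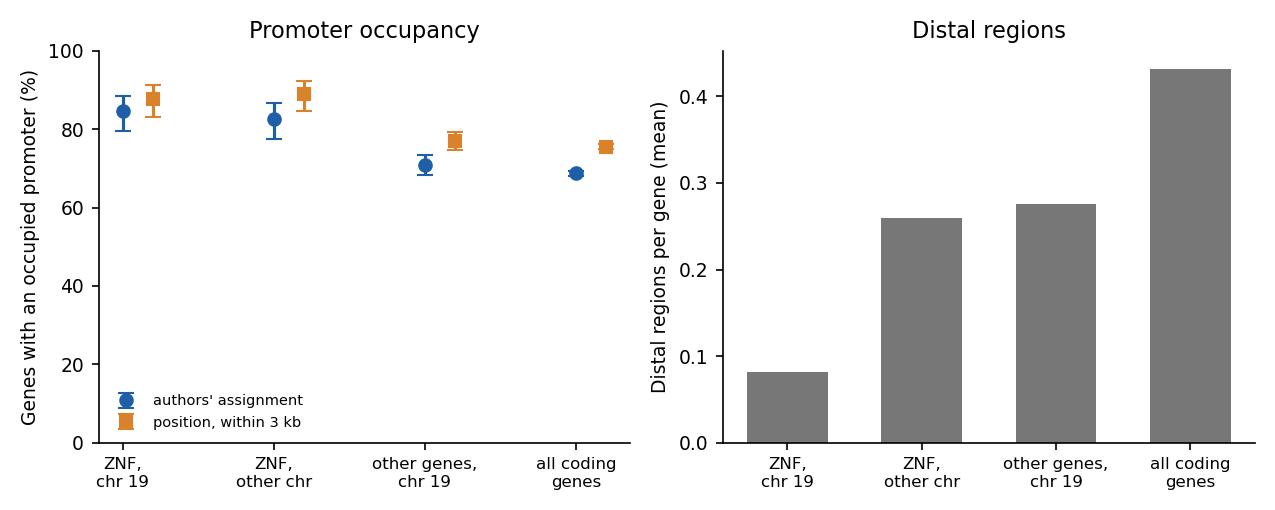
The left panel plots the percent of coding genes with an occupied promoter in 4 groups, by the authors' assignment and by position, with Wilson 95% intervals, and the right panel plots the mean number of distal regions per gene. The ZNF groups sit above 80% on the left, and the chromosome 19 ZNF genes have the lowest bar on the right, at 0.0813.

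Not every member without an occupied promoter lacked EP300 nearby. Of the 38, 12 had a region in both replicates within 3 kb of a RefSeq start that the authors' annotation gave to another transcript. ZNF569 was such a case, with the region assigned to its neighbour ZNF570, as were ZNF345 beside ZNF790, ZNF580 beside ZNF581 and ZNF468 beside ZNF28. Another 6 had a promoter peak in 1 list alone. ZNF433 had fold enrichment 4.09 and ZNF784 had 2.25 in replicate 1, where fold enrichment is the authors' ratio of EP300 signal over background at the summit. In replicate 2 alone the values were 4.63 at ZNF221, 4.27 at ZNF155, 4.16 at ZNF233 and 3.26 at ZNF324. The remaining 20 had neither. RefSeq lists 17 pseudogenes of this name form on the chromosome. The 7 considered here entered through a peak, so their count says nothing of the rest, and 6 had an occupied promoter, among them ZNF702P with fold enrichment 8.8 in replicate 1 and 9.62 in replicate 2, and ZNF833P had none.

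Peaks of the members were mostly promoter peaks. Promoters held 87.7% of member peaks in replicate 1 and 89.7% in replicate 2, against 47.9% and 48% of all peaks, and 72% and 69.2% of the peaks of other ZNF genes. Introns held 18 and 13 member peaks (5.81% and 4.33%), against 22.3% of all peaks in both replicates. Intergenic DNA held 17 and 15 (5.48% and 5%), against 24.1% and 23.8% of all. Exons held 1 member peak in each replicate, or 0.323% and 0.333%, against 2.92% of all peaks in both. Peaks of the members thus seldom lay outside promoters. Among non-promoter peaks, introns held 18 of 38 and 13 of 31 at the members, against 14579 of 34037 and 14468 of 33731 over all. The low intron counts are the counterpart of the high promoter share.

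The member peaks recurred between replicates more often than peaks at large. In replicate 1, 284 of 310 overlapped a peak of replicate 2 (91.6%, Wilson 88 to 94.2), and in replicate 2, 276 of 300 overlapped one of replicate 1 (92%, 88.4 to 94.6). The same shares were 74.5% and 73.9% over all peaks. The other ZNF genes stood between, at 89.2% and 83.6%, and the other chromosome 19 genes had 79.3% and 79.7%. Among promoter peaks alone, members had 95.2% and 94.4% and the other ZNF genes 95.3% and 93.1%, against 84.2% and 83.3% of all. Outside promoters, members had 65.8% and 71% and the other ZNF genes 73.3% and 62.2%, against 65.6% and 65.2% of all. The order of the groups over all peaks was also the order of their shares of promoter peaks. Among promoter peaks alone, both ZNF groups still stood above the other chromosome 19 genes, which had 84.7% and 85%. What sets the order was not tested.

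At the members' promoters the median fold enrichment was 7.76 over peaks in replicate 1 and 7.46 in replicate 2, a mean of 7.61 ± 0.21 (SD, n = 2). All promoter peaks had medians of 5.67 and 5.71. This contrast was not seen when each gene with a promoter peak in a list was represented by its highest one there. The medians per gene were then 8.58 and 8.44 for the members, against 8.67 and 8.84 for all coding genes and 10.2 and 9.92 for ZNF genes of other chromosomes. Very strong promoters were somewhat fewer among the members, since 40 of the 200 with a promoter peak in both lists (20%) lay above percentile 90 of fold enrichment in both, against 25.2% of all occupied coding genes. The replicates gave similar values for single genes: the higher value was a median of 1.2 times the lower, and 182 of the 200 lay within 1.5 times. The highest peak was taken in each list separately, and at some genes, such as ZNF649 and ZNF765, the peaks compared do not overlap.

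**Figure D2:**
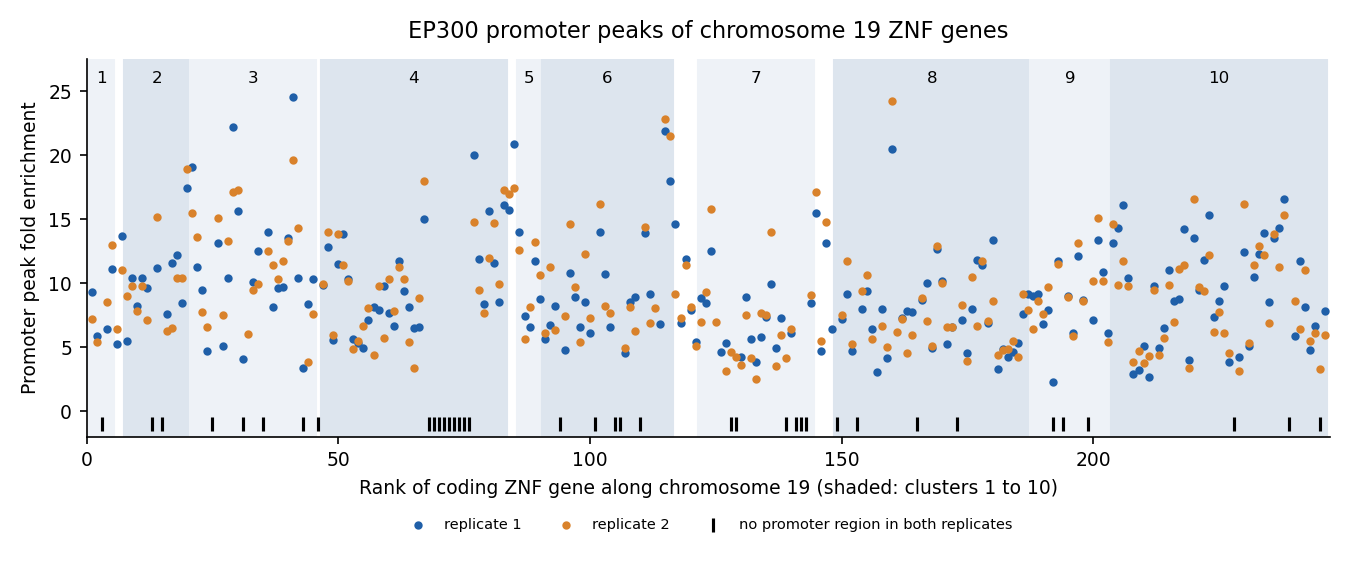
Each member is placed by its rank along chromosome 19, and the vertical axis gives the fold enrichment of its highest promoter peak in replicate 1 (blue) and replicate 2 (orange), with the 10 clusters shaded and black ticks for members without a promoter region in both replicates. The values run from 2.25 to 24.5, and the ticks form 1 long run in cluster 4.

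The 8 highest-ranked members were spread over several clusters. ZNF607 had fold enrichment 21.9 in replicate 1 and 22.8 in replicate 2 in a peak at chr19:37719104-37719803 over its start, with -log10 q-values of 75.2 and 80.8. ZNF766 had 20.5 and 24.2 in a peak at chr19:52269448-52270774. ZNF443 had 24.5, the highest value of any member in replicate 1, and 19.6. These lay in clusters 6, 8 and 3, above percentile 98 of both lists. ZNF573, next to ZNF607, had 18 and 21.5, in a peak that the authors' annotation puts at a start beyond the RefSeq end of the gene. At its RefSeq start the region had 4.7 and 5.63. ZNF846 had 17.4 and 18.9, likewise beyond the RefSeq end, with 5.11 and 7.97 at the start in the RefSeq promoter table. ZNF507, which lies outside the clusters, had 20.9 and 17.4. ZNF700 had 22.2 and 17.1, and ZNF254 had 16.1 and 17.3. In all 8 the promoter was occupied under every alternative tried, but they were chosen for high values in both lists, which favours this.

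The 4 occupied members with the lowest rank were near the limit of the lists. ZNF284 had fold enrichment 3.88 in replicate 1 and 2.54 in replicate 2, ZNF17 had 2.66 and 4.34, ZNF304 had 2.9 and 3.83, and ZNF45 had 5.36 and 3.12. Each lay below percentile 15 in 1 of the lists, and none was occupied when peaks of fold enrichment of at least 5 were required. ZNF284 and ZNF45 lie in cluster 7, and ZNF17 and ZNF304 in cluster 10.

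Summits of the members' promoter peaks lay downstream of the start more narrowly than at other genes. The median summit was 266 bp into the gene in replicate 1 and 255 bp in replicate 2, against 196 bp for all promoter peaks in both. A window from 200 to 400 bp after the start held 50.7% of the members' summits in replicate 1 and 51.3% in replicate 2. The same window held 22.8% and 22.7% of all promoter summits, 22.4% and 21.8% at the other chromosome 19 genes, and 39.8% and 40.6% at ZNF genes of other chromosomes. Before the start lay 24.3% and 23.8% of the members' summits, against 36.5% and 36.4% of all. Distances are to the start the authors' annotation chose for the peak, and the window was picked after the distribution was seen. Peak width did not set the members apart, at medians of 928 and 984 bp against 930 and 975 bp for all promoter peaks.

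**Figure D3:**
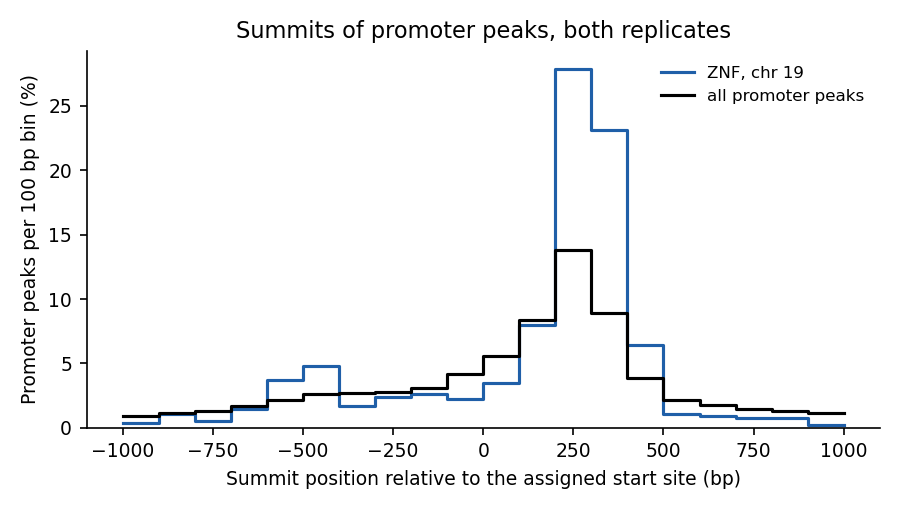
The horizontal axis gives the summit position of promoter peaks relative to the assigned start in bp, downstream positive, and the vertical axis the percent of promoter peaks in each 100 bp bin, over both replicates. The members (blue, 541 peaks) reach 27.9% in the bin from 200 to 300 bp, where all promoter peaks (black, 62404 peaks) reach 13.8%.

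Runs of members with gaps of at most 500 kb formed 10 clusters of 5 or more genes, which held 232 of the 246, and 14 genes were scattered. In the clusters 195 members were occupied (84.1%). Coding genes of other names inside the same clusters were occupied in 40 of 90 cases (44.4%). They included 8 olfactory receptor, 6 NLRP and 3 vomeronasal receptor genes, none of them occupied. Zinc finger genes under other names, such as ZFP28, ZIK1 and ZSCAN18, were occupied in 9 of 12 cases. Of the 5 SIGLEC and FPR genes 1 was occupied, SIGLEC14, and of the 56 coding genes outside these families 30 were (53.6%).

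The clusters held fewer EP300 regions per Mb than the rest of chromosome 19, most of all away from promoters. They spanned 14.4 Mb and held 386 regions found in both replicates, or 26.9 per Mb, against 45.7 per Mb over the rest, centromere included. Regions without a promoter peak numbered 47 in the clusters, or 3.27 per Mb, against 12.3 per Mb over the rest. Regions with one had 23.6 and 33.4 per Mb. Cluster 10 was an exception in the total, as given below. The 3 outermost members at each cluster end, or 2 in the clusters of 5 genes, were occupied in 51 of 56 cases (91.1%) and the inner members in 144 of 176 (81.8%). The genes of the long unoccupied run in cluster 4 are all inner members.

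Counting intervals of the clusters overlapped widely. The smallest, cluster 1 (ZNF554 to ZNF77) and cluster 5 (ZNF302 to ZNF792), had 4 of 5 and 5 of 5 members occupied. ZNF77 led cluster 1 with fold enrichment 11.1 in replicate 1 and 13 in replicate 2, and ZNF302 led cluster 5 with 14 and 12.6. Cluster 2 (ZNF414 to ZNF846) had 11 of 13, without ZNF177 and ZNF560. Cluster 3 (ZNF653 to ZNF791) had 21 of 25, and its median fold enrichment per gene was among the highest of the clusters, at 10.4 and 11.7. Cluster 6 (ZNF565 to ZNF573) had 21 of 26, and the neighbours ZNF585A and ZNF585B were without a peak. Cluster 9 (ZNF628 to ZNF835) had 13 of 16, with ZNF470 highest at 13.4 and 15.1.

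Cluster 10, at the end of the long arm (ZNF264 to ZNF446), was the most densely occupied of the large clusters. It had 40 of 43 members occupied (93%, 81.4 to 97.6) and 52.4 regions per Mb. ZNF544 was its highest member, at 16.6 in replicate 1 and 15.3 in replicate 2. Cluster 8 (ZNF175 to ZNF331) had 35 of 39 (89.7%) with lower values, a median of 7.43 and 6.84. Its members without a peak in either table included ZNF175, ZNF350 and ZNF534.

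Cluster 7 (ZNF575 to ZNF180) had the lowest share, with an interval that overlaps those of the other clusters, and the lowest median values. Its rank rests on replicate 1: by replicate 2 alone 19 of its members were occupied (82.6%), and cluster 4 was then lowest at 75.7%. Of its 23 members 17 were occupied (73.9%, 53.5 to 87.5), and the median fold enrichment per gene was 6.71 in replicate 1 and 6.43 in replicate 2. ZNF112, ZNF229 and ZNF285 form a run of neighbours without an assigned promoter peak, and at ZNF285 a region lay within 3 kb of a start but was given to another transcript. ZNF428 was the exception at the high end, at 12.5 and 15.8. The scattered members had a median of 11.9 and 10.1, with 13 of 14 occupied.

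Cluster 4 held the longest run of members without a called EP300 peak. It runs from ZNF101 to ZNF254 (chr19:19668153-24129968, 4.46 Mb, on the short arm near the centromere), and 28 of its 37 members were occupied (75.7%, 59.9 to 86.6). The 9 others were consecutive: ZNF208, ZNF257, ZNF676, ZNF729, ZNF98, ZNF492, ZNF99, ZNF723 and ZNF728. Neither table used here has any peak between 21852318 and 23070594, a distance of 1.22 Mb in which these 9 are the only coding genes. The authors' running peak numbers have no break across it, from 30740 to 30741 in replicate 1 and from 30554 to 30555 in replicate 2, so the numbering leaves no room for a peak missing from the tables used here. With no peak there to use, none of the 9 could be occupied under the 7 alternatives, single replicates and assignment by position included. The nearest region found in both replicates was between 71.5 kb (ZNF728) and 539 kb (ZNF98) away, measured from the start or, for genes of unknown strand such as these, from the nearer gene end.

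A peak-free stretch of this length with as many coding genes in it was uncommon. On chromosome 19 the tables left 3614 stretches between peaks, with a median of 5.5 kb, and 2 of them were at least 1 Mb long. The longer one, 3.71 Mb from 24087873 to 27793248, holds no coding gene. Over chromosomes 1 to 22 and X there were 71 stretches of at least 1 Mb, 42 of them without a coding gene, and 5 had 9 or more. This stretch was singled out after its values were seen. How well short reads can be placed in it was not tested, because no read data and no genome sequence were used here.

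The genes on either side were occupied, some of them strongly. To the left, ZNF43 had fold enrichment 15 in replicate 1 and 18 in replicate 2, ZNF100 had 6.57 and 8.82, and ZNF429 had 6.5 and 3.34. To the right, ZNF730 had 20 and 14.8, ZNF724 had 11.9 and 9.45, and ZNF91, a repressor of primate retrotransposons, had 8.38 and 7.68. At the right edge, a weak peak of replicate 2 alone, with fold enrichment 2.24 at chr19:23070595-23071352, lay between the stretch and ZNF730.

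**Figure D4:**
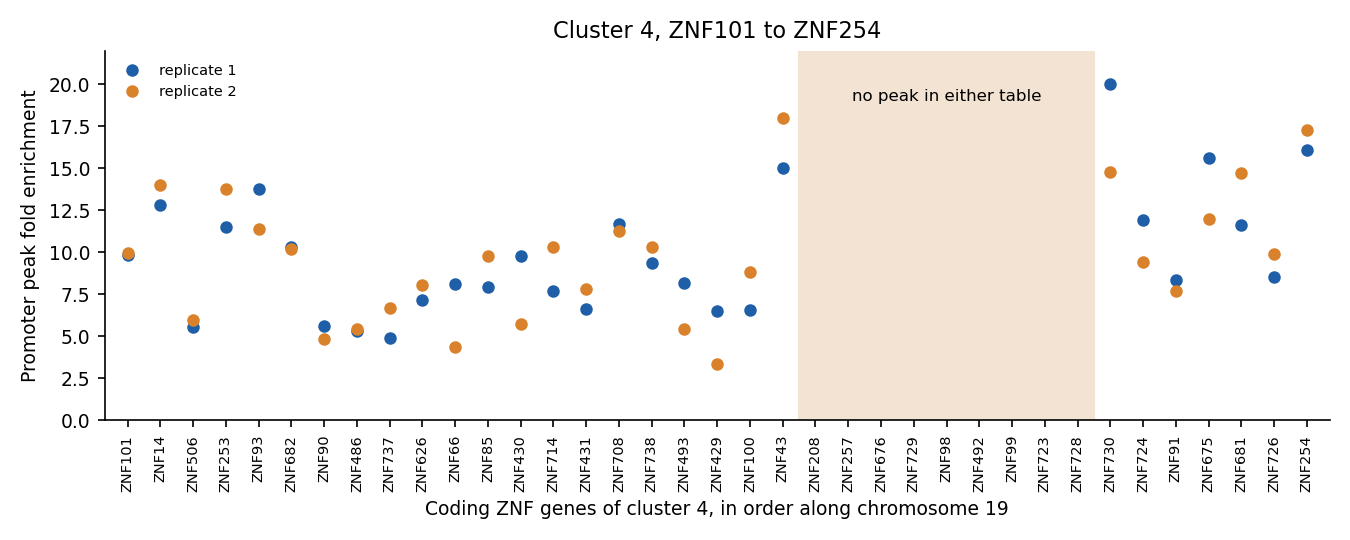
The 37 coding members of cluster 4 stand in their order along chromosome 19, and the vertical axis gives the fold enrichment of the highest promoter peak in replicate 1 (blue) and replicate 2 (orange). The 9 genes in the shaded stretch have no peak, and ZNF43 at 15 and 18 and ZNF730 at 20 and 14.8 stand at its edges.

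The promoters inside the stretch share their sequence with occupied promoters beside it. RefSeq (GRCh38.p14) gives a promoter for 4 of the 9 genes, and the 100 bases before the start are printed here for these 4, then for 4 occupied neighbours, to show that the same elements stand in both sets. Sequences run 5' to 3' along the gene's strand and end at the base before the start, and capitals mark CCAAT and CTTCCGG.
ZNF208 chr19:22010944-22011043, minus strand: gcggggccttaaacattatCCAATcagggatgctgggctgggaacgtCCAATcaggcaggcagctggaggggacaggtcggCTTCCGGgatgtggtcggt
ZNF257 chr19:22052384-22052483, plus strand: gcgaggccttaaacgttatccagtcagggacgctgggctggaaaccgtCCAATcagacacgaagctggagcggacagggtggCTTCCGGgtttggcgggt
ZNF492 chr19:22634224-22634323, plus strand: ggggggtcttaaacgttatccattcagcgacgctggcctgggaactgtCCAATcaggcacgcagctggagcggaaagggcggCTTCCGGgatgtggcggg
ZNF723 chr19:22832191-22832290, plus strand: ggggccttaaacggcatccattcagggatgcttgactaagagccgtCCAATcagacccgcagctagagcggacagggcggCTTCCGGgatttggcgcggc
ZNF43 chr19:21836183-21836282, minus strand: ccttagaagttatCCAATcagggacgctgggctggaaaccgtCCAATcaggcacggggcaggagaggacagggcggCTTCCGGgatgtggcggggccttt
ZNF100 chr19:21767580-21767679, minus strand: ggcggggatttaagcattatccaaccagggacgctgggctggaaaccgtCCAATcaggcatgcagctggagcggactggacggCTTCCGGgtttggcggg
ZNF730 chr19:23116925-23117024, plus strand: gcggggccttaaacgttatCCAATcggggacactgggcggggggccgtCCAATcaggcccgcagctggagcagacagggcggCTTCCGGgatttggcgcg
ZNF91 chr19:23395472-23395571, minus strand: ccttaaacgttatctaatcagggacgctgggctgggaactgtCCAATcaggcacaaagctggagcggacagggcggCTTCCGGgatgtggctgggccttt

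All 8 hold CTTCCGG close to the start and CCAAT 34 bases before it, counted from first base to first base. The occupied neighbours were picked for printing. ZNF429, also occupied beside the stretch, does not hold both elements in the windows given below. CCAAT is the core of the site that the factor NF-Y reads, and CTTCCGG is an ETS family core in its reverse orientation. The printed starts of ZNF43, ZNF730 and ZNF723 are inner ones of their genes. Those of ZNF43 and ZNF730 each had a region of their own, and that of ZNF723 had none. At ZNF43 that region had fold enrichment 9.77 in replicate 1 and 11.1 in replicate 2, and at ZNF730, at chr19:23116947-23117744, 14.1 and 11.7. A match to these letters is a description of the sequence and does not show that a factor was bound.

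The element pair was a feature of cluster 4. With CTTCCGG starting 10 to 30 bases and CCAAT 40 to 70 bases before the start, windows chosen after the sequences were seen and read on the gene's strand alone, 19 of the 29 cluster 4 promoters with sequence had both (65.5%). Among these 19, 15 belonged to occupied genes, and the other 4 were ZNF208, ZNF257, ZNF492 and ZNF723. Over all members with sequence the pair stood in 22 of 216 (10.2%), in 19 of them at a spacing of 34 bases, and the 3 outside cluster 4 were ZNF419, ZNF132 and ZNF324 in cluster 10. It stood in 7 of 214 promoters of other ZNF genes (3.27%), in 0 of 969 at the other chromosome 19 genes and in 39 of 15813 coding promoters (0.247%). Each of the 17 occupied genes with the pair had a region within 1 kb of the start concerned.

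Identity between whole promoters was similar inside and outside the stretch. In a global alignment of the 300-base windows, from 250 bases before the start to 50 after it, the closest match of the 4 genes inside had a median identity of 80.9% (75.2 to 86). For the 25 genes outside it was 82.4% (56.4 to 91). ZNF208 and ZNF91 shared 86% of bases, with no peak at the first and a peak in both lists at the second. ZNF714 and ZNF431, the closest pair at 91%, were both occupied, at 7.7 and 10.3 for ZNF714 and 6.63 and 7.79 for ZNF431. Near-identical copies can exchange reads, so values of single genes in this cluster are uncertain by an amount not known here.

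Sequence features of the whole group were examined in the same 300-base windows, which RefSeq gave for 216 of the 246 members (87.8%). The letters CTTCCGG, on either strand, stood in 44.9% of the members' promoters, against 33.2% at other ZNF genes, 13% at the other chromosome 19 genes and 14.1% of all coding promoters. CCAAT, on either strand, stood in 54.2%, against 36.4% of all. The share with CTTCCGG was about the same in occupied members (45.2%) as in the others (43.3%). CCAAT was less common in occupied members (50.5%) than in the others (76.7%). These others include the 12 members whose region was given to another transcript. The contrast is therefore not one between promoters with and without a region. TATAAA was rare, in 2.31% of members against 9.75% of all coding promoters. The 8-base word most in excess over non-ZNF promoters was TCCAATCA, which contains CCAAT. It stood in 52 of 216 members (24.1%), in all 29 of cluster 4 with sequence, and in 1.39% of non-ZNF coding promoters.

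The 2 highest-ranked members had neither element of the cluster 4 kind in place, which their sequences show in the same format.
ZNF607 chr19:37719762-37719861, minus strand: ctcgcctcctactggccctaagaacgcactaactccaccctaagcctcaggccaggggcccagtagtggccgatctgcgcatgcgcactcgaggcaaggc
ZNF766 chr19:52269487-52269586, plus strand: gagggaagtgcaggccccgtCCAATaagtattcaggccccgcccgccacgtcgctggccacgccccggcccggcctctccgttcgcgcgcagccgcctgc

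ZNF766 has a CCAAT further from the start and no CTTCCGG in this stretch, and ZNF607 has neither in the 100 bases printed. Both were at or above percentile 99 in both lists. High fold enrichment thus occurred without the pair.

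By the authors' assignment, occupancy of the members changed little with CpG content, though the low end rests mostly on cluster 4. The median member promoter had 20 CpG dinucleotides in its 300 bases, against 22 over all coding genes. Occupied and unoccupied members differed little, at medians of 20.5 and 17, whereas over all coding genes these were 26 and 7. The unoccupied members include the 12 whose region was given to another transcript, with 11 CpG (ZNF587B) to 42 CpG (ZNF667). Each of these had a region at the start whose sequence was used. The values by CpG content therefore depend on the assignment. With 10 to 19 CpG, 70 of 86 members were occupied (81.4%, Wilson 71.9 to 88.2), against 72.9% of all coding genes. With 5 to 9 CpG, 11 of 14 members were occupied (78.6%), against 54.4% of all and 53% of the other chromosome 19 genes. Most of these 14 were duplicated genes of cluster 4, all of them occupied. Outside cluster 4, ZNF69 and ZNF574 were occupied, and ZNF556, ZNF491 and ZNF112 were not. With 0 to 4 CpG there was 1 member, ZNF404, whose assigned region lay 17.3 kb from the start in question, so its low-CpG promoter itself had none. In that bin 25.2% of 2620 coding genes were occupied. Among the 186 occupied members with sequence, 181 had a region within 1 kb of the start whose sequence was used. With 20 or more, 104 of 115 were occupied (90.4%), against 85.3% of all. In the 3 upper bins the value over all coding genes lies inside the members' interval, so they show no difference beyond counting error. The peak-free stretch lies within this range, with 10 CpG at ZNF208, 13 at ZNF257, 16 at ZNF492 and 10 at ZNF723, against 12 at ZNF43 and 11 at ZNF91.

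**Figure D5:**
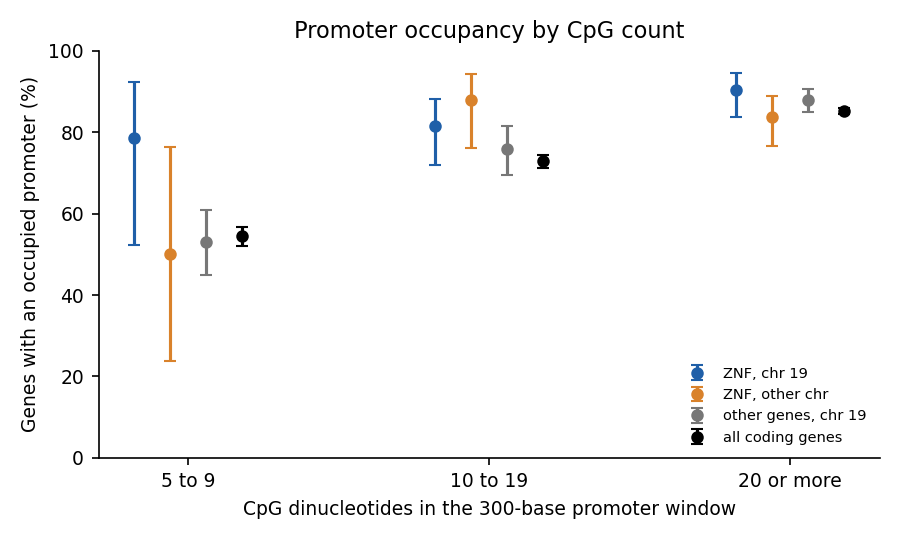
The horizontal axis bins coding promoters by CpG dinucleotides in the 300-base window, and the vertical axis gives the percent occupied in each of 4 groups, with Wilson 95% intervals; the bin of 0 to 4, with 1 member, is not drawn. In the bins drawn, members (blue) stay between 78.6% and 90.4%, while all coding genes (black) rise from 54.4% to 85.3%. Most members in the lowest bin drawn belong to cluster 4.

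Neighbouring members shared promoter regions in places. Of the 251 promoter regions of members, 10 lay within 1 kb of the starts of 2 ZNF genes, 16 near the start of another coding gene and 44 near that of a long non-coding RNA gene. For 162 no other start was near. ZNF568 and ZNF829 share the region at chr19:36915481-36916751, with fold enrichment 14 in replicate 1 and 16.2 in replicate 2, and ZNF382 and ZNF529 share one with 10.8 and 14.6. ZNF490 and ZNF791, ZNF146 and ZNF565, ZNF461 and ZNF567, and ZNF540 and ZNF571 were further pairs. The enrichment of such a region cannot be divided between its genes. Most occupied members, 178 of 208, had a single promoter region, and ZNF846 had the most, 4.

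Distal regions were rare at the members. A region found in both replicates, over 3 kb from the start and free of promoter peaks was assigned to 12 of the 246 (4.88%), against 20.6% of all coding genes, 11.4% of ZNF genes of other chromosomes and 17.4% of the other chromosome 19 genes. There were 20 such regions, or 0.0813 per gene, against 0.259, 0.276 and 0.431 per gene in ZNF genes elsewhere, other chromosome 19 genes and all coding genes. Each peak goes to its nearest gene, and distances to neighbouring genes were not matched between these groups. In the single lists the members had 0.146 and 0.118 distal peaks per gene in replicates 1 and 2.

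The few distal regions were concentrated at a few genes. ZNF578 had 4, all annotated as intronic and 3.03 to 7.12 kb from the start in the authors' annotation. Their fold enrichments reached 6.95 in replicate 1 and 5.45 in replicate 2. The RefSeq start of ZNF578 lies 28.4 kb from the nearest region found in both replicates. ZNF536, a regulator of neuronal differentiation outside the clusters, had 3 that the authors' annotation calls intronic. The highest of them, at chr19:30221974-30223176 with 11.1 and 10.3, lies before the RefSeq start at 30225592 and less than 3 kb from it, so it is distal only by the authors' start. ZNF507 had 3 weak ones, 27.2 to 36.3 kb away, none above 4.63. ZNF114 had 2, and its region at chr19:48289939-48291734 had 10.7 and 9.08. In cluster 4, ZNF730 had a region 26.3 kb away with 7.77 and 8.54, and ZNF93 one 22.6 kb away with 6.89 and 8.83. The median over the members' distal regions, the 2 at pseudogenes included, was 5.38 and 5.42, against 4.6 and 4.63 for distal regions of all genes.

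Members were also described by role. The 7 listed repressors of transposable elements were all occupied, in a group where 84.6% were. ZNF93, which silences L1 elements, had fold enrichment 13.8 in replicate 1 and 11.4 in replicate 2, and ZNF611 had 10.2 and 10. ZNF649 had 9.14 and 11.7, from peaks at different places that do not overlap. ZNF808 had 9.98 and 7.05. Lowest were ZNF417, at 5.12 and 5.36, and its close relative ZNF587, at 4.26 and 3.13, which fell below the stricter thresholds.

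Of the 4 listed members linked to the naive state, 1 was occupied. ZNF296, a gene of pluripotent cells outside the clusters, had 15.5 in replicate 1 and 17.1 in replicate 2. ZNF534, ZNF676 and ZNF729 had no peak in either table, and ZNF676 and ZNF729 lie in the peak-free stretch of cluster 4. With so few genes the count is a description of these 4 alone.

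The 5 members listed for other roles were occupied as well. ZNF274, which brings SETDB1 to the 3' ends of ZNF genes, had 14.3 and 11.3 in replicates 1 and 2. ZNF536 had 15.7 and 17 at an inner start, ZNF331, an imprinted gene, 9.12 and 7.89, and ZNF146, which encodes a protein of zinc fingers without a KRAB domain, 6.72 and 11.3. ZNF541, a germ cell gene, had 4.67 and 5.45 at an inner start, and the region beside its RefSeq start had 2.94 and 5.01. ZNF541 was not occupied once peaks had to reach fold enrichment 5.

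Genes listed as partners of KRAB zinc finger proteins were occupied in 18 of 18 cases, against 68.7% of all coding genes. Their median fold enrichments were 8.24 and 7.67 in replicates 1 and 2. The list also holds ZFP57 and ZNF445, which encode zinc finger proteins themselves. ZNF445 is counted among the ZNF genes of other chromosomes as well. TRIM28, itself on chromosome 19, had 7.27 and 7.89, and SETDB1 had 6.14 and 6.79. HDAC2, a histone deacetylase, was highest at 20.1 and 26, followed by TASOR of the HUSH complex with 14 and 15.8. The medians were below 8.67 and 8.84, those of all coding genes with a promoter peak in the list concerned. That set includes genes found in 1 list alone.

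The deposited gene descriptions name a KRAB domain for 125 members, all with a peak, since genes without a peak have no description in the tables. Of these 119 were occupied (95.2%), at a median per gene of 8.93 and 8.13, and of the 90 members with a peak but no such entry 89 were (98.9%), at 8.44 and 8.6. The listing may be incomplete, so no difference between KRAB and other members is read from it.

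As a check of the labelled cells, the promoters of 5 of 5 general and 7 of 7 naive pluripotency genes were occupied, and so were 5 of 6 fibroblast genes, the type of the feeder layer. The share over all coding genes was 68.7%, so the counts say little about cell identity. The part of other cells in the member peaks was not tested.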

How the data were processed

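EP300 ChIP-seq peaks of 2 samples of naive H9 cells were used, 1 table each, so peaks were called per sample. Per the file headers, the deposited signal value is a fold enrichment (a ratio) at the summit, beside a -log10 p-value, a -log10 q-value and a score, of which the p-value and score were not used. The largest q was 0.0497 in replicate 1 and 0.0498 in replicate 2. The submitters' processing notes name fastp 0.19.11 and GRCh38. How reads were aligned, peaks called and reads with several placements treated is not given in the sources used here, and the tables hold no read counts, so depth is unknown.

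Rows of 1 interval were joined with the highest fold and its summit, and peaks overlapping by at least 1 bp between replicates were merged into regions on chromosomes 1 to 22 and X. All 222 gene names of the rule matched RefSeq (GRCh38.p14). Strand came from the RefSeq promoter table for 216 members and from the authors' annotation for 25, and for 5 both ends were used. The most upstream start in that table was used for sequences. Named genes were the 8 highest and 4 lowest occupied members by the lower of the 2 fold percentiles, the 5 with most distal regions, each cluster's extremes and up to 3 genes without a peak, and the listed genes. Others were chosen after their values were seen. Members and lists were chosen with earlier results of these data known. Genes are not replicates, so no test was run, and the region and share steps were tested on simulated data. Analyses used Python 3.11.15, pandas 2.3.3, scipy 1.17.1 and statsmodels 0.14.6.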

Additional observations from a re-analysis of the deposited data

How the results depend on the processing

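Across the alternatives, 28 of the summary values stayed within the replicate spread or interval, 12 moved and 3 changed sign. Occupancy of 84.6% became 70.3% at a fold enrichment of at least 5 and 78.9% with -log10 q-values from 5 upwards, and was 84.1% to 84.6% in single lists. The difference of 2.04 points from ZNF genes of other chromosomes changed sign to -0.017 at the fold threshold, -0.606 at the q threshold and -1.17 by position alone, and was 0.876 to 2.04 in single lists. The difference of 13.8 points from other chromosome 19 genes kept its sign in all of them, from 10.7 to 15.8, with 11.4 to 11.7 in single lists. The median promoter fold of 7.61 became 7.83 with peaks found in both replicates and 7.97 at the q threshold, with 7.46 to 7.76 in single lists. Distal regions per gene, 0.0813, became 0.0325 at the fold threshold, 0.0569 at the q threshold and 0.0407 beyond 10 kb, and 0.118 to 0.146 in single lists, where peaks need no counterpart. The shared share of 91.8% became 91.5% at 50% overlap and 92.7% at the q threshold. The lowest share of any cluster, 73.9% in cluster 7, became 47.8% at the fold threshold, 56.5% at the q threshold and 64% with clusters split at 250 kb. In single lists it was 69.6% to 75.7%, the latter in cluster 4. The thresholds leave fewer peaks, and the cause of the other changes was not tested. Of 63 named genes, 10 lost their occupied promoter at the fold threshold and 7 at the q threshold, and by position 8 gained and 1, ZNF578, lost it. No paired analysis was possible because there is 1 group. Unknown depth limits what the weak peaks can show.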
